A study of Mus musculus with 6 samples.

Results

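The Notch pathway genes described here are 10 rows of a table of 30386 genes: the receptors Notch1, Notch2 and Notch3, the ligands Jag1, Jag2 and Dll1, the nuclear proteins Rbpj and Maml1, and the effectors Hes1 and Hey1. They were chosen by symbol as pathway members, and all 10 were found. The libraries came from back skin epidermis of E18.5 mouse embryos, with 3 libraries of the genotype p63alphaKO and 3 of wild type (WT). The sources used here do not describe the construction of the p63alphaKO allele, the strain or the sex. Nor is it stated that the libraries of a group came from separate embryos, so each p-value measures only the spread between these libraries. Reads came from the 3' ends of mRNAs, and the level of a gene is given in CPM, the reads of the gene scaled to a common library total. The libraries held between 2564407 and 4474764 reads. Errors of group means are standard deviations (SD) over 3 libraries. A log2 fold change divides p63alphaKO by WT on log2(CPM + 1), which understates changes of low genes, and comes with its standard error (SE).

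Notch receptors are single-pass membrane proteins that are activated by Jagged and Delta-like ligands on neighbouring cells. Ligand binding leads to cleavage of the receptor, and the freed intracellular domain joins the DNA-binding protein RBPJ and a Mastermind-like coactivator to switch on genes such as those of the Hes and Hey repressors. In epidermis the pathway is known for promoting the step from basal to spinous cells, and p63 and Notch are known to act against each other in keratinocytes. The comparison with p63alphaKO epidermis asks how the mRNAs of this pathway stand when the alpha isoforms of p63, the longest at the carboxy terminus, are targeted.

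Trp63, the targeted gene, was at 143, 146 and 136 CPM in p63alphaKO replicates 1, 2 and 3, against 63.9, 71.7 and 87.2 CPM in WT replicates 1, 2 and 3 (log2 fold change 0.93, limma adjusted p = 0.0192). The call was lost without any one of the 3 p63alphaKO libraries (adjusted p = 0.0998, 0.0971 and 0.0854 without replicates 1, 2 and 3). Since reads were summed per gene, isoforms are not resolved and the absence of alpha forms is unchecked. The libraries carried epidermal markers throughout: Krt5 and Krt14, the basal keratins, were at 1612 CPM or more in every p63alphaKO library and at 1037 CPM or more in every WT library. Markers of several other tissues, dermis and vessels among them, had lower sums in p63alphaKO. The sum of 8 melanocyte markers was 346 CPM or more in p63alphaKO and 343 CPM or less in WT. Dct made up most of it, at 255 to 373 CPM in p63alphaKO and 131 to 244 CPM in WT. It was the only melanocyte marker without overlap, and 0 of the 4 tested were called. The summed level of 10 fibroblast and dermis markers was between 558 and 934 CPM in p63alphaKO and between 2532 and 5494 CPM in WT, and 7 of the 9 tested were called lower (5 to 8 with 1 library left out). For 10 endothelial markers the sum was between 6.76 and 10.2 CPM in p63alphaKO and between 29.6 and 69.0 CPM in WT. Cldn5, Emcn and Tek were at 0 in all p63alphaKO libraries, but their WT reads were few. WT replicates 1, 2 and 3 held 3, 9 and 3 reads of Cldn5, 6, 11 and 5 of Emcn and 3, 1 and 0 of Tek. In such bulk samples, fewer cells of a type and less RNA per cell cannot be told apart. Genes averaging 10 CPM or more were tested, 7464 in all, and limma called 35 higher (0.469%) and 88 lower (1.18%) at an adjusted p under 0.05 (Benjamini-Hochberg). The split was 48 to 65 with TMM scaling and 69 to 64 with upper quartile scaling. Without p63alphaKO replicates 1, 2 and 3 the number of called genes was 46, 67 and 37, and without WT replicate 1 it was 186.

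No Notch member differed between the genotypes beyond the spread of the libraries. Of the 8 members that reached this minimum, limma called 0, where 1.65% of all tested genes were called. None of the 8 had an unadjusted p under 0.05, a level that 15.6% of all tested genes reached. On whole reads recovered from the CPM, edgeR's quasi-likelihood test and DESeq2 also called 0 of the 8, against 1.1% and 4.25% of all tested genes. The values of the 2 genotypes overlapped for every one of the 8, and they did not overlap for 21% of all tested genes. With only 8 genes, counts of 0 are near these background shares and do not set the members apart from other genes. The 95% intervals of the limma fit lay within a 2-fold change either way for all 8 members, as they did for 65.7% of all tested genes, and within 1.5-fold for Notch1, Notch2, Jag1 and Rbpj. These intervals are per gene, not adjusted over genes, and hold for the deposited scaling only. With upper quartile scaling the log2 fold changes moved from 0.12 to 0.26 for Notch1 and from 0.016 to 0.15 for Rbpj. The median log2 fold change was -0.10 over the 8 members and -0.085 over all tested genes. TMM scaling gave -0.0018 and 0.018, and upper quartile scaling 0.027 and 0.048, so the sign of medians this small changed with the scaling. Dll1 and Hey1 were under the minimum and are given as values without a test.

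**Figure D1:**
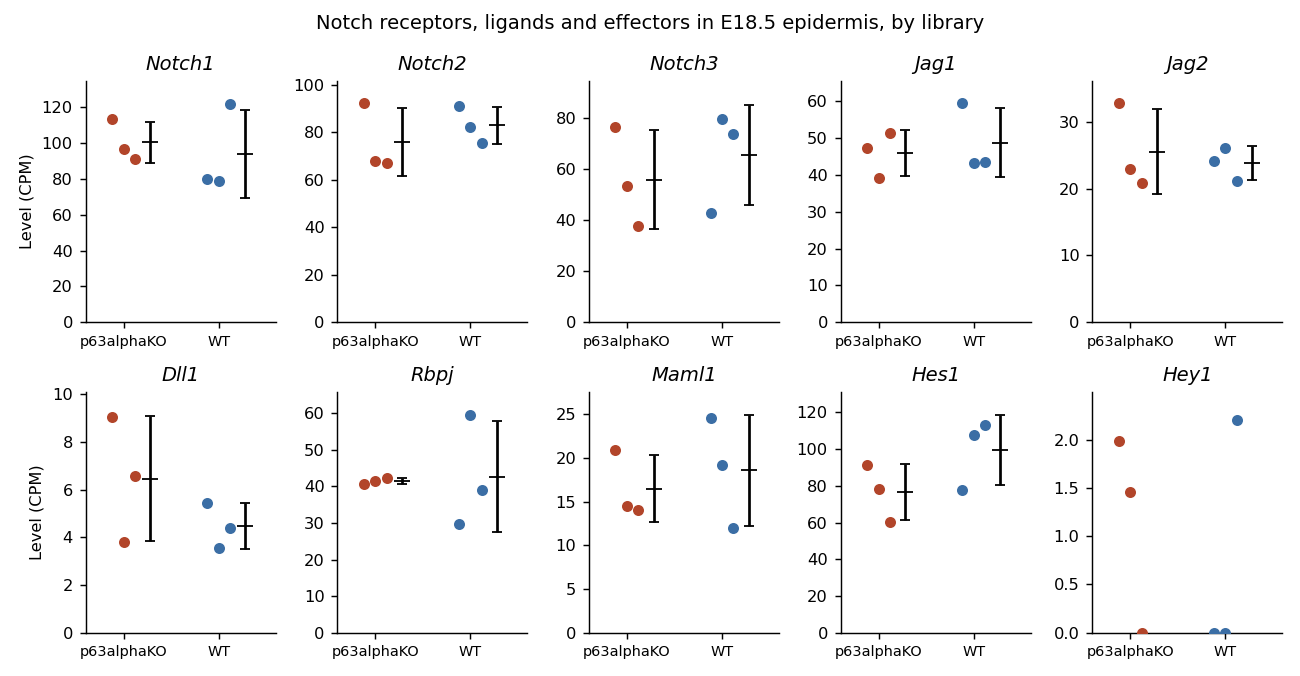
Level of each of the 10 Notch genes (vertical axis, CPM, each panel with its own scale from 0) in the 3 p63alphaKO libraries (red points) and the 3 WT libraries (blue points). Black marks are mean ± SD (n = 3), left out for Hey1, which was at 0 in 3 of the 6 libraries. In every panel the points of the 2 genotypes overlap.

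Among the receptors, Notch1, the main receptor of the epidermis, had the highest mean level in both genotypes, but in WT this rested on replicate 3. Without it, the WT means were 79.5 CPM for Notch1 and 86.7 CPM for Notch2. Notch1 (ENSMUSG00000026923, chromosome 2, 26457903 to 26516663, minus strand, mm10) was at 113, 97.0 and 91.0 CPM in p63alphaKO replicates 1, 2 and 3, against 80.3, 78.8 and 122 CPM in WT replicates 1, 2 and 3. WT replicate 3 was the highest of all 6 libraries and the other WT libraries were the lowest. The means were 100.5 ± 11.7 CPM in p63alphaKO and 93.7 ± 24.6 CPM in WT (log2 fold change 0.12, SE 0.21, 95% interval -0.33 to 0.57, adjusted p = 0.838). Exons of 2 genes on the opposite strand, 0610009E02Rik and Gm13568, lie within 500 bases of an annotated 3' end of Notch1. The sources do not say whether counting used the strand, so the Notch1 value is uncertain to that extent.

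Notch2, a receptor related in structure to Notch1, was nearly as abundant. Notch2 (ENSMUSG00000027878, chromosome 3, 98013527 to 98150361, plus strand) was at 92.6, 68.1 and 67.1 CPM in p63alphaKO and 91.2, 82.2 and 75.6 CPM in WT. One p63alphaKO library was the highest of the 6 and the other p63alphaKO libraries were the lowest, so the groups overlapped, with a log2 fold change of -0.14 (SE 0.20, 95% interval -0.57 to 0.29, adjusted p = 0.802). An annotated gene on the same strand, Gm42820, shares exon sequence with Notch2.

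Notch3, a receptor also known from the mural cells of blood vessels, varied most between libraries among the receptors. Notch3 (ENSMUSG00000038146, chromosome 17, 32120820 to 32166852, minus strand) was at 76.2, 53.3 and 37.6 CPM in p63alphaKO and 42.9, 79.3 and 73.7 CPM in WT. Both groups thus spanned nearly the same range, with a log2 fold change of -0.23 (SE 0.28, 95% interval -0.84 to 0.37, adjusted p = 0.756). Markers of mural cells had a summed level between 11.9 and 20.3 CPM in p63alphaKO and between 27.7 and 42.2 CPM in WT. In WT replicate 1, where Notch3 was lowest among WT libraries, that sum was 39.0 CPM. Cspg4 alone was at 8.75, 9.32 and 8.05 CPM in p63alphaKO and 8.18, 9.82 and 24.2 CPM in WT. Of the 8 mural markers, only Pdgfrb and Abcc9 were lower in p63alphaKO without overlap. Abcc9 and Kcnj8 were at 0 in all p63alphaKO libraries, but Kcnj8 had only 5, 0 and 3 reads in WT. The part of such cells in the Notch3 level was not tested.

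The composition of receptor mRNA, which does not depend on how libraries are scaled, also overlapped between the genotypes. Notch1 made up 40.2%, 44.4% and 46.5% of the summed CPM of the 3 receptors in p63alphaKO replicates 1, 2 and 3, against 37.5%, 32.8% and 45.0% in WT replicates 1, 2 and 3. Its mean share was 43.7% ± 3.21 in p63alphaKO and 38.4% ± 6.16 in WT, a difference of 5.27 percentage points (two-sided exact permutation test, p = 0.3, n = 3 per group). With 1 library left out the difference lay between 2.46 and 8.57 points. The smallest p that this test can give with 3 libraries against 3 is 0.1. Notch2 held 32.8% ± 1.55 of receptor mRNA in p63alphaKO and 34.9% ± 7.37 in WT. For Notch3 the share was 23.5% ± 3.97 in p63alphaKO and 26.7% ± 6.51 in WT. Shares varied more among WT libraries than among p63alphaKO libraries for each receptor, a difference in spread that was not tested.

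**Figure D2:**
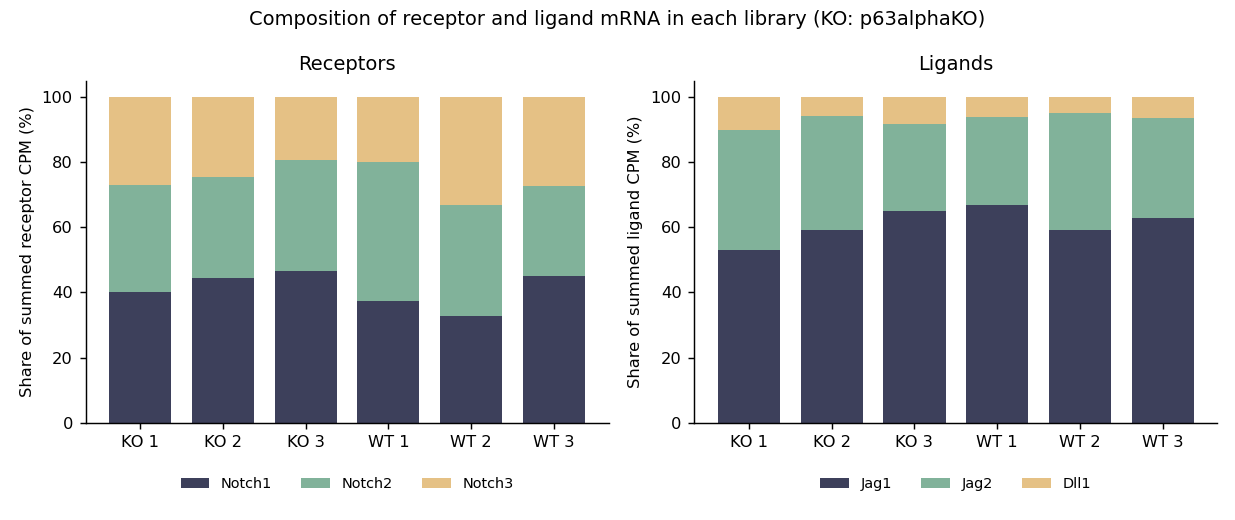
Share of each receptor in the summed receptor CPM (left panel) and of each ligand in the summed ligand CPM (right panel), in percent, for the 3 p63alphaKO libraries (KO) and the 3 WT libraries. The Notch1 share ranges from 40.2% to 46.5% in p63alphaKO and from 32.8% to 45.0% in WT, and Jag1 is the largest ligand share in every library.

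Of the ligands, Jag1 was the most abundant in all 6 libraries, followed by Jag2 and Dll1. Jag1 (ENSMUSG00000027276, chromosome 2, 137081456 to 137116644, minus strand), a Jagged-type ligand, was at 47.4, 39.0 and 51.3 CPM in p63alphaKO and 59.6, 43.3 and 43.5 CPM in WT. WT replicate 1 was the highest library, and the others of both genotypes were interleaved. The log2 fold change was -0.079 (SE 0.22, 95% interval -0.56 to 0.40, adjusted p = 0.913), and with TMM or upper quartile scaling it was 0.026 or 0.055.

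Jag2 (ENSMUSG00000002799, chromosome 12, 112907819 to 112929776, minus strand), the other Jagged ligand, was at 32.8, 23.0 and 20.9 CPM in p63alphaKO and 24.2, 26.1 and 21.1 CPM in WT. The p63alphaKO libraries held both the highest and the lowest value. The log2 fold change was 0.078 (SE 0.27, 95% interval -0.50 to 0.65, adjusted p = 0.931). Jag2 made up 32.7% ± 5.45 of summed ligand CPM in p63alphaKO and 31.1% ± 4.38 in WT, a difference of 1.58 percentage points (two-sided exact permutation test, p = 0.8, n = 3 per group).

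Dll1, a Delta-like ligand known from clusters of basal keratinocytes in human skin, was near the limit of what these libraries resolve. Dll1 (ENSMUSG00000014773, chromosome 17, 15367354 to 15376872, minus strand) was at 9.03, 3.79 and 6.56 CPM in p63alphaKO and 5.46, 3.57 and 4.41 CPM in WT. These levels rest on 32, 13 and 22 reads in p63alphaKO and 14, 16 and 14 reads in WT. The 2 highest libraries were p63alphaKO, and the third p63alphaKO library lay within the WT range. The opposite-strand gene A930024N18Rik, which has an exon near the 3' end of Dll1, was at 1.13 CPM in p63alphaKO replicate 1 and at 0 in the other libraries.

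In the nuclear complex, Rbpj, the DNA-binding partner of every Notch receptor, had the smallest fold change of the tested members. Rbpj (ENSMUSG00000039191, chromosome 5, 53466152 to 53657362, plus strand) was at 40.7, 41.4 and 42.4 CPM in p63alphaKO and 29.6, 59.4 and 39.0 CPM in WT. The p63alphaKO libraries were almost equal and lay inside the wide WT range, with a log2 fold change of 0.016 (SE 0.26, 95% interval -0.53 to 0.56, adjusted p = 0.988). Maml1 (ENSMUSG00000050567, chromosome 11, 50255634 to 50292311, minus strand), a coactivator that binds the complex of RBPJ and the receptor's intracellular domain, was at 20.9, 14.6 and 14.0 CPM in p63alphaKO and 24.6, 19.2 and 12.0 CPM in WT. Its lowest and highest libraries were both WT, and the log2 fold change was -0.13 (SE 0.34, 95% interval -0.85 to 0.59, adjusted p = 0.904), the least precise value among the tested members.

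Hes1, a repressor induced by Notch and required to maintain spinous cells in mouse embryonic skin, had the smallest p of the members. Hes1 (ENSMUSG00000022528, chromosome 16, 30064384 to 30067796, plus strand) was at 91.2, 78.3 and 60.6 CPM in p63alphaKO replicates 1, 2 and 3, against 77.5, 108 and 113 CPM in WT replicates 1, 2 and 3. The 2 highest libraries were WT, while WT replicate 1 lay below 2 of the p63alphaKO libraries. The means were 76.7 ± 15.4 CPM in p63alphaKO and 99.5 ± 19.2 CPM in WT. The log2 fold change was -0.37 (SE 0.22, 95% interval -0.84 to 0.093), with an unadjusted p of 0.109 and an adjusted p of 0.446 by limma. It was between -0.54 and -0.21 with 1 library left out and -0.24 with upper quartile scaling.

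Hey1, the other effector, was close to absent from the counts. Hey1 (ENSMUSG00000040289, chromosome 3, 8663359 to 8667256, minus strand) had 7, 5 and 0 reads in p63alphaKO and 0, 0 and 7 reads in WT, or 1.98, 1.46 and 0 CPM in p63alphaKO and 0, 0 and 2.20 CPM in WT. A count of 0 allows up to 3 reads, which is between 0.670 and 1.17 CPM in these libraries, so no difference was detectable at this depth. Such limits cover counting error only.

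**Figure D3:**
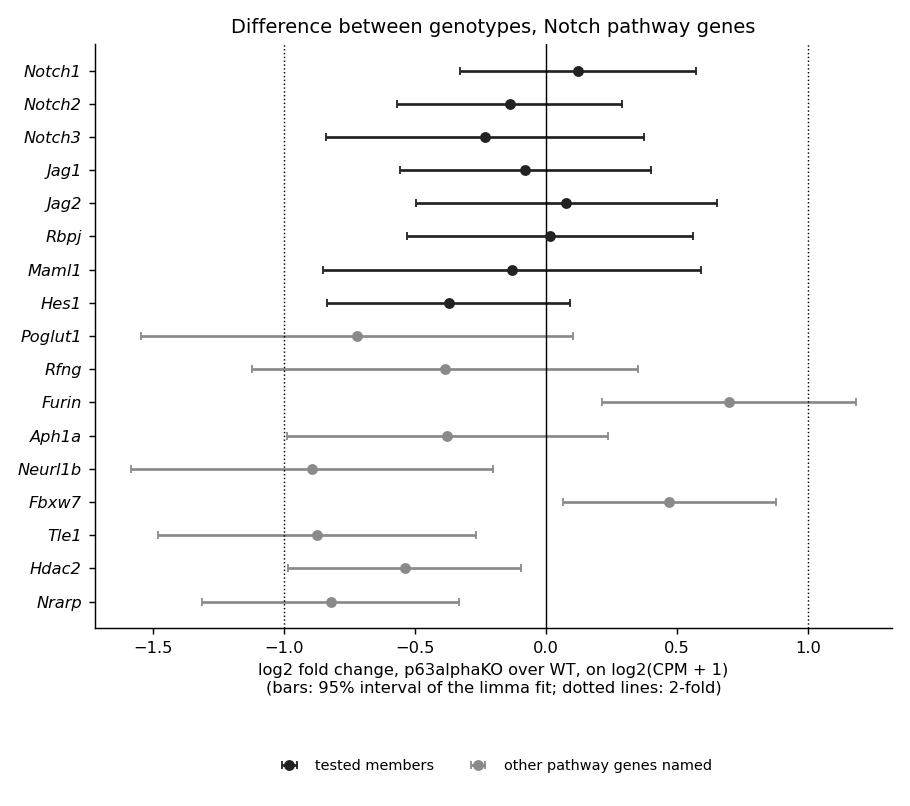
Log2 fold change of p63alphaKO over WT (horizontal axis, on log2(CPM + 1)) for the 8 tested members (black) and 9 other Notch pathway genes (grey), with bars for the 95% interval of the limma fit and dotted lines at a 2-fold change. All 8 members' bars cross 0 and stay inside the dotted lines, and Nrarp, at -0.82, has a bar from -1.31 to -0.33.

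Ordered by their mean over the 6 libraries, the members ran from Notch1 (97.1 CPM) through Hes1 (88.1), Notch2 (79.5), Notch3 (60.5), Jag1 (47.4), Rbpj (42.1), Jag2 (24.7), Maml1 (17.5) and Dll1 (5.47) to Hey1 (0.94). Because reads were taken at transcript ends, these levels were not divided by transcript length. Some neighbours in this order were not separated. Notch1 was above Hes1 in 5 of 6 libraries, Hes1 above Notch2 in 3 of 6, Notch3 above Jag1 in 4 of 6, Jag1 above Rbpj in 4 of 6 and Jag2 above Maml1 in 5 of 6. Notch2 was above Notch3, Rbpj above Jag2, Maml1 above Dll1 and Dll1 above Hey1 in all 6 libraries. Only for the pairs Maml1 with Dll1 and Dll1 with Hey1 did no value of one gene reach any value of the other. In the list of all 30386 genes by mean level, Notch1 ranked 1680, Jag1 3123 and Dll1 8985.

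The rest of the pathway likewise held no called gene. A list of 63 other pathway genes had 62 above 0 in some library and 38 with a mean of at least 10 CPM. Of these 38, limma called 0, as did edgeR's quasi-likelihood test and DESeq2. Over all tested genes the called shares were 1.65%, 1.1% and 4.25%, so 0 of 38 is near the background. An unadjusted p under 0.05 was reached by 6 of them in limma, or 15.8%, against 15.6% of all tested genes. Fold changes were positive for 12 and negative for 26, and their median log2 value was -0.15, beside 3002 positive and 4462 negative and a median of -0.085 over all tested genes. With upper quartile scaling these medians were -0.017 and 0.048. The groups did not overlap for 6 of the 38, beside 21% of all tested genes, a difference that was not tested.

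Nrarp, a gene induced by Notch whose ankyrin-repeat protein restrains the Notch transcription complex, had the smallest p of all pathway genes in the limma test and missed the threshold. It kept that place among the other pathway genes in 12 of the 17 alternatives, and in DESeq2 Furin was ahead of it (adjusted p = 0.0518). Nrarp (chromosome 2, 25180758 to 25183339, plus strand) was at 51.1, 35.8 and 31.6 CPM in p63alphaKO replicates 1, 2 and 3, against 60.8, 77.0 and 70.5 CPM in WT replicates 1, 2 and 3. Every p63alphaKO library lay below every WT library. The log2 fold change was -0.82 (SE 0.23, 95% interval -1.31 to -0.33), with an unadjusted p of 0.00286 and an adjusted p of 0.0815 by limma. The adjusted p was 0.112 in edgeR's quasi-likelihood test and 0.0699 in DESeq2, and over the 17 alternatives it ran from 0.0699 to 0.329. In the same libraries 7 of the 9 tested fibroblast and dermis markers were lower without overlap, beside 13.4% of all tested genes. So were 6 of the 10 endothelial markers, but all 10 were under the minimum mean, so that share does not cover them. The part of such cells in the Nrarp level was not tested. An opposite-strand gene with an exon at the Nrarp 3' end, Gm38287, was listed at 0 in all 6 libraries.

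Most other targets were too low to test. Hes2, Hes5 and Hey2, which belong to the Hes and Hey families, did not exceed 2.62 CPM in any library. Heyl was between 0.30 and 5.53 CPM in p63alphaKO and between 0 and 5.07 CPM in WT.

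Genes that process or remove the receptors were not called either. Furin, the protease that makes the first cut in the receptor, was at 124, 176 and 224 CPM in p63alphaKO and 126, 107 and 84.7 CPM in WT (log2 fold change 0.70, adjusted p = 0.134). Its lowest p63alphaKO library lay just under its highest WT library. Fbxw7, the ubiquitin ligase subunit that marks the cleaved receptor for destruction, was at 86.4, 99.9 and 90.7 CPM in p63alphaKO and 63.1, 60.5 and 75.9 CPM in WT, without overlap (0.47, adjusted p = 0.239). Neurl1b, a ubiquitin ligase for ligand uptake, was at 18.6, 32.6 and 21.5 CPM in p63alphaKO and 30.8, 38.0 and 75.6 CPM in WT (-0.89, adjusted p = 0.192). Aph1a, a subunit of the gamma-secretase that makes the last cut, gave a log2 fold change of -0.38 (adjusted p = 0.581). For Poglut1 and Rfng, which add sugars to the receptors, it was -0.72 and -0.38 (adjusted p = 0.396 and 0.657).

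Among 16 tested nuclear cofactors, 13 had negative and 3 positive fold changes, beside 4462 negative and 3002 positive over all tested genes. Of the 16, 0 were called, beside 1.65% of all tested genes. Lower values without overlap were seen for 3 of the 16, beside 13.4% of all tested genes, a difference that was not tested. Tle1, a Groucho-family corepressor that works with Hes proteins, was at 22.0, 14.6 and 12.5 CPM in p63alphaKO and 28.4, 32.2 and 29.6 CPM in WT. Every p63alphaKO library was below every WT library (log2 fold change -0.87, SE 0.28, adjusted p = 0.135 by limma). Hdac2, a histone deacetylase of corepressor complexes, was at 64.3 ± 10.8 CPM in p63alphaKO and 93.8 ± 15.0 CPM in WT, also without overlap (-0.54, adjusted p = 0.218). For the coactivators Ep300 and Crebbp the log2 fold changes were -0.15 and -0.065 (adjusted p = 0.777 and 0.894).

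The 25 pathway genes under the minimum mean included the other receptor and ligands. Notch4 and Dll4, known from endothelium, did not exceed 1.26 CPM in any library, and both were listed at 0 in all p63alphaKO libraries. WT replicates 1, 2 and 3 held only 0, 3 and 2 reads of Notch4 and 0, 0 and 4 reads of Dll4. No difference was detectable at this depth. Lfng, a fringe enzyme that changes which ligands a receptor answers to, was between 2.09 and 3.49 CPM in p63alphaKO and between 2.34 and 9.44 CPM in WT. Dtx4, a Deltex ubiquitin ligase, was at 1.41, 2.62 and 1.49 CPM in p63alphaKO, against 7.01, 4.47 and 6.93 CPM in WT. Lfng and Dtx4 were singled out after their values were seen, and neither was tested with the minimum used here.

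**Figure D4:**
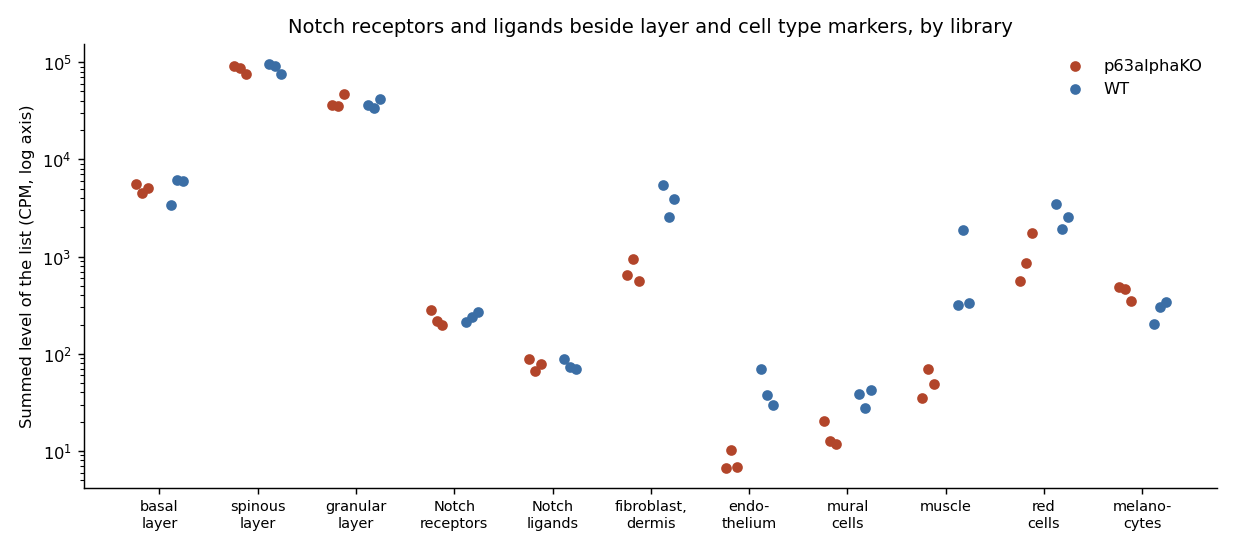
Summed CPM (vertical log axis) of layer markers, the 3 Notch receptors, the 3 Notch ligands and markers of other tissues in the 3 p63alphaKO libraries (red) and the 3 WT libraries (blue). The receptor sums run from 196 to 282 CPM in p63alphaKO and from 214 to 271 CPM in WT, while the fibroblast, endothelial, mural, muscle and red cell sums are lower in every p63alphaKO library than in any WT library. Melanocyte sums, made up mostly of Dct, go the other way, from 346 to 490 CPM in p63alphaKO and from 203 to 343 CPM in WT.

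The summed level of the receptors and the layers in which they act also overlapped. The 3 receptors summed to 282, 218 and 196 CPM in p63alphaKO and 214, 240 and 271 CPM in WT. The 3 ligands summed to 89.2, 65.8 and 78.7 CPM in p63alphaKO and 89.2, 73.0 and 69.0 CPM in WT. Spinous markers, the layer that Notch activity is known to promote, summed to between 75257 and 90582 CPM in p63alphaKO and between 75799 and 95306 CPM in WT. Of the 7 spinous markers, Krt77 was called higher. Of the 8 basal markers, 6 had positive and 2 negative fold changes, with a median log2 value of 0.34. Krt15 was called lower, and Itga6, Col17a1 and Lamb3 were higher in p63alphaKO without overlap and without a call. Over all 7464 tested genes, 567 were higher without overlap. Krt5, Krt14, Itgb4 and Itgb1 overlapped between the genotypes, Itgb1 with a log2 fold change of -0.017. The basal sum lay between 4545 and 5608 CPM in p63alphaKO and between 3430 and 6150 CPM in WT.

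Promoter sequence was examined because Notch acts through a DNA motif of RBPJ, written TGGGAA and searched on both strands in the 300 bases around RefSeq start sites (build GRCm38.p6, 250 before and 50 from the start). The motif occurred in 25.6% of 32851 promoters. Among the members, 8 had entries, and Rbpj was the gene whose promoters held it, in both of its 2 windows. These windows overlap, and the only match in the second is the same site as the -65 match of the first. Hes1 and Hey1 had no entry. Shown are the first Rbpj promoter, as the member whose own protein reads the motif, Hes5, a textbook Notch target that was nearly unread in this tissue, and Nrarp, the pathway gene with the smallest p in the limma test. Capitals mark TGGGAA or its reverse complement. The windows are chr5:53590096-53590395 for Rbpj, chr4:154960673-154960972 for Hes5 and chr2:25180508-25180807 for Nrarp, all on the plus strand and written 5′ to 3′.
Rbpj: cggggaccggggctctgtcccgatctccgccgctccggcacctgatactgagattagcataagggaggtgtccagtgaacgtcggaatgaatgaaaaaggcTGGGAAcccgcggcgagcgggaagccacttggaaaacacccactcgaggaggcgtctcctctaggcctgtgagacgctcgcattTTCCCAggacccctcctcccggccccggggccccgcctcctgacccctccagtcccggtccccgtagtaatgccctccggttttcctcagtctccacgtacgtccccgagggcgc
Hes5: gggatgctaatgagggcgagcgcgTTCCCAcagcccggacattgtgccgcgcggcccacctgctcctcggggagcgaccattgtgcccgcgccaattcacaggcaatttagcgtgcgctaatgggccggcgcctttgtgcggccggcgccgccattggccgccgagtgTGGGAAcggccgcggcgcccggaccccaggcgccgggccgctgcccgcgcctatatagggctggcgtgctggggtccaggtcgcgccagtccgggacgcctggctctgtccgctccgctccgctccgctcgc
Nrarp: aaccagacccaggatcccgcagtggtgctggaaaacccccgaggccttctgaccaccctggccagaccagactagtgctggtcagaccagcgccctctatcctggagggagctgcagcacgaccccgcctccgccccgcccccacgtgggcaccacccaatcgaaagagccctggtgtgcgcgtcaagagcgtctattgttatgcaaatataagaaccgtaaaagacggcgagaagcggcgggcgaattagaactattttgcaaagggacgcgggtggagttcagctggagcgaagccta
Counted from the start site, the Rbpj matches began at -149 and -65, on opposite strands, and the Hes5 matches at -226 and -82. Nrarp held no match in this window, which says only that these letters are not there, and it held 1 E-box, CACGTG, at -108, a motif found in 7.15% of promoters. A match of 6 letters is a description of the sequence and shows no binding.

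Profiles over the 6 libraries most like those of 2 members were found by the root mean square difference between centred log2(CPM + 1) values. For Hes1, the member with the smallest p, the nearest tested genes were Ikbkb (0.048), Zfp81 (0.048) and Scd2 (0.054), beside a spread of 0.30 for Hes1 itself. For Notch1, the member with the highest mean, they were Lig3 (0.070), Tmem50a (0.073) and Dek (0.074), beside a spread of 0.23 for Notch1. None of these 6 genes was called (adjusted p between 0.465 and 0.902).

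**Figure D5:**
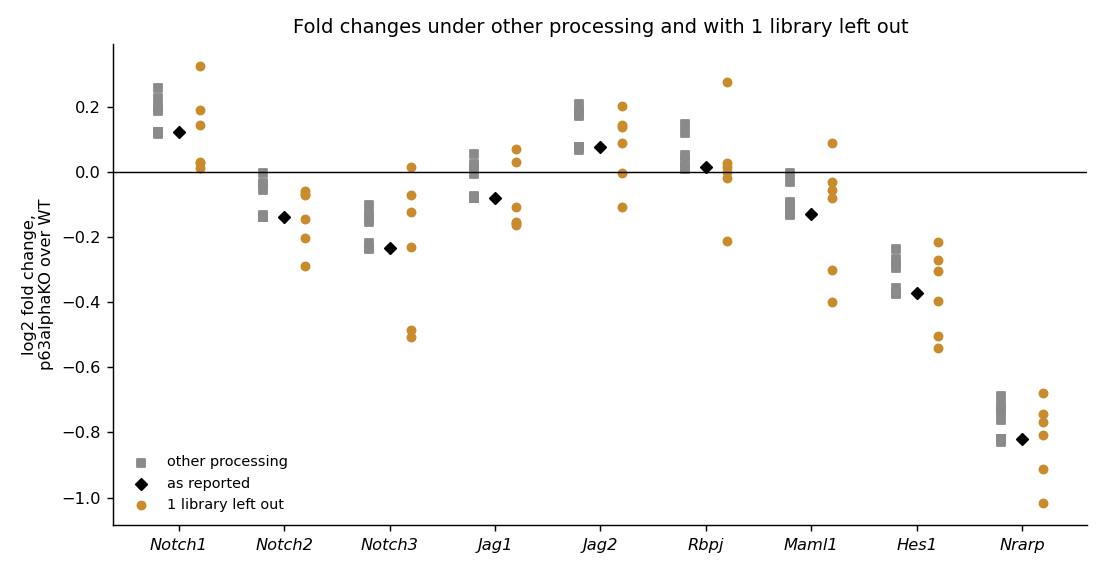
Log2 fold change of the 8 tested members and Nrarp (vertical axis) as reported (black diamonds), under 11 other processing choices where the gene was tested (grey squares) and with each of the 6 libraries left out in turn (orange circles). Values of Notch3, Jag1, Jag2, Rbpj and Maml1 fall on both sides of 0, while Hes1 stays between -0.54 and -0.21 and Nrarp between -1.02 and -0.68.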

How the data were processed

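3' digital gene expression libraries were made from 3 p63alphaKO and 3 WT epidermis samples, grouped by title. STAR, HTSeq and the build mm10 are named in the submitters' processing notes, without versions, annotation or strand setting. The labels name 2 different RNA kits. The authors deposited CPM with 2 decimals, scaled to library totals. All values were whole multiples of 1 read within 0.0055 CPM (100%), which gave whole reads. Genotype was tested on log2(CPM + 1) by limma-trend (version 3.58.1 in R 4.3.3), two-sided, for 7464 genes averaging 10 CPM or more, with Benjamini-Hochberg adjustment and a threshold of 0.05. Alternatives were edgeR 4.0.16 and DESeq2 1.42.0 on the recovered reads, other pseudocounts, minimum means and scalings, a replicate block and leaving out each library. The steps were tested on simulated data. Shares used exact permutation tests. Positions and exon overlaps are from GENCODE mouse release 21 on mm10 (99.9% of IDs matched), promoters from RefSeq (GRCm38.p6). Members and lists were chosen with earlier results of these data known. Named were all members, called pathway genes and, in each role, the 2 tested genes with the smallest p, of which 1 gene is not reported here. Ep300, Crebbp, Hes2, Hes5, Hey2, Heyl, Notch4, Dll4, Lfng and Dtx4 were named outside that rule, after their values were seen.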

Additional observations from a re-analysis of the deposited data

How the results depend on the processing

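No member and no other Notch pathway gene was called under any of the 17 alternatives, and the smallest adjusted p of a member was 0.205, without WT replicate 1 (limma). Fold changes of Notch1, Notch2 and Hes1 kept their sign in every alternative that tested them, but those of Notch1 and Notch2 came close to 0. With 1 library left out Notch1 lay between 0.014 and 0.33, Notch2 between -0.29 and -0.058 and Hes1 between -0.54 and -0.21. Notch2 was at -0.0029 with upper quartile scaling. Jag1, at -0.079, was at 0.026 with TMM scaling, 0.055 with upper quartile scaling and 0.010 in DESeq2. With 1 library left out, values ran from -0.51 to 0.015 for Notch3, -0.16 to 0.071 for Jag1, -0.11 to 0.20 for Jag2, -0.21 to 0.28 for Rbpj and -0.40 to 0.091 for Maml1, and the difference in Jag2 share from -0.46 to 4.68 percentage points. The cause was not tested. The count of called genes over all tested genes, 123, was 256 with a minimum mean of 1 CPM, 36 with 50 CPM, 41 by limma without trend, 317 by DESeq2, and 37 to 186 with 1 library left out. Dll1 could be tested with a lower minimum or none (adjusted p = 0.759 and 0.785) and Hey1 with none (0.792).

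No consistent pairing of the 2 genotypes by replicate number was seen. Deviations of same-numbered libraries from their group means correlated at -0.023, 0.066 and -0.11 over genes, and not every library correlated best with its own number. Deviations within a group sum to 0, which constrains these correlations, so they cannot settle whether libraries were paired. With the number as a replicate block, 127 genes were called in place of 123, Hes1 had an adjusted p of 0.567 by limma, and the Notch1 share differed by 5.27 percentage points (exact sign-flip p = 0.25, the smallest that 3 pairs can give). Depth limits the lowest members most: each tested member rested on between 38 and 483 reads per library, and 4 of the 8 intervals reached past a 1.5-fold change.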
